A study of Mus musculus with 2 samples.

Results

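The 82 genes described here encode the proteins of the cytosolic ribosome of the mouse: 33 for the small subunit (Rps genes and Rpsa) and 49 for the large subunit (Rpl genes and Rplp0, Rplp1 and Rplp2). They were chosen by symbol from the 22359 protein-coding genes of the GENCODE vM1 annotation of build mm9, leaving out the Rps6k kinases, Rps19bp1, Rpl7l1, Rpl22l1 and predicted genes. Another 53 symbols of the form Rpl21-ps12, which name pseudogenes but are annotated as protein-coding, were also left out. The 82 include 6 paralogues, namely Rpl10l, Rpl36al, Rpl39l, Rpl3l, Rps27l and Rps4y2. Of 9165 regions (peaks) bound by the transcription factor Foxf2 in the embryonic palate, 30 were assigned to 25 of these genes. A peak was assigned to the gene whose transcription start site lay nearest to its centre, within 100 kb, and was called a promoter peak within 1 kb of that start and a distal peak beyond it.

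Chromatin immunoprecipitation followed by sequencing (ChIP-seq) recovers the DNA bound by a protein, and the study used it to look for genes controlled by Foxf2 as the palate forms. The tissue was palatal shelves, the outgrowths of the upper jaw that fuse into the palate, taken as 50 pairs at E13.5 (embryonic day) from embryos homozygous for a 3xFLAG tag on the endogenous Foxf2 protein (Foxf2FLAG/FLAG, made by CRISPR/Cas9 editing). There was 1 library from the anti-FLAG precipitation and 1 input library of unprecipitated DNA, both from tagged embryos. No replicate and no library of untagged embryos was analysed here, so no difference below has a replicate check, and every interval covers counting error only. The shelves were pooled whole, so binding in mesenchyme cannot be told apart from binding in other cells of the shelf.

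Cytosolic ribosomal proteins are made in near-equal amounts in every growing cell, and their genes have strong, compact promoters whose transcripts usually begin within a run of pyrimidines, the mark of messages whose translation follows nutrient supply. Inherited loss of a single copy of several of them causes Diamond-Blackfan anaemia, in which cleft palate is among the malformations, and RPL5 is the gene best known for it. Foxf2 is a forkhead factor of the palatal mesenchyme whose loss gives cleft palate in mice. Forkhead proteins bind the sequence RTAAAYA, in which R stands for A or G and Y for C or T.

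The ChIP library held 26849463 tags, of which 397999 lay in peaks, and the input library was 0.716 times as deep. Peak scores, which are the authors' own from the peak caller, ran from 17 to 271 over the list with a median of 25, and the deposited fold over input was at least 10.03 because the caller required a 10-fold excess. Input counts were small: of the 30 peaks at ribosomal protein genes, 19 had at most 2 input tags, and the fold of each is known only loosely. All 5 markers of palatal mesenchyme that were looked up (Twist1, Prrx1, Osr2, Pax9 and Msx1) had assigned peaks, against 1 of 5 epithelial markers, 1 of 3 endothelial markers and 1 of 2 muscle markers. Over all protein-coding genes 22.0% had one. The markers also differed in the median length of sequence that could be assigned to them. It was 143 kb for mesenchyme, 54.9 kb for epithelium, 134 kb for endothelium, 63.3 kb for muscle and 46.5 kb over all genes. The part of this length in the counts was not tested. Assigned peaks are positions and give no expression level.

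Stretches of the DNA under promoter and distal peaks are shown here as picked examples, which do not stand for every peak of a class. The following promoter stretches, each within a peak, end at the base before the outermost annotated start in the peak and are written 5′ to 3′ on the gene's own strand. They lie at chr5:116009326-116009475 (plus strand) for Rplp0, chr16:33056389-33056538 (plus strand) for Rpl35a and chr7:52384119-52384234 (minus strand) for Rpl13a, all mm9. Capitals mark a forkhead site in Rplp0, which reads on the opposite strand, and the SP/KLF motif GGGCGG or its complement in the other two. Distances given below are to the protein-coding start nearest the peak's centre, which for Rpl35a and Rpl13a is another start farther into the gene.
Rplp0: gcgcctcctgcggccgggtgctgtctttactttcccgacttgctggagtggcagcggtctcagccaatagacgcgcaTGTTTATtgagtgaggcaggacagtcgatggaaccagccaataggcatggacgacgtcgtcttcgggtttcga
Rpl35a: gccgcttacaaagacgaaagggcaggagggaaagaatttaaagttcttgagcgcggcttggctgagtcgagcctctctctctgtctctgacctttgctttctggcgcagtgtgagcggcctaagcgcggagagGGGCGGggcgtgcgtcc
Rpl13a: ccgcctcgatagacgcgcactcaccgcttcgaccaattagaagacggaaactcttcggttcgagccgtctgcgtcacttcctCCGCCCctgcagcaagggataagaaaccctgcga
Away from the Rplp0 site, no promoter peak of a ribosomal protein gene held a forkhead site over its whole width.

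These 7 distal stretches show the forkhead sites, in capitals, within the central 200 bp of their peaks, each on the strand that reads 5′ to 3′ here. The stretches were picked from the 13 of 19 distal peaks with such a site, and the other distal peaks held none there. They lie at chr10:23474188-23474307 (minus strand) for Rps12, chr3:85918721-85918777 (minus) for Rps3a, chr6:148300889-148300945 (plus) for Rps4y2, chr11:29471765-29471821 (plus) for Rps27a, chr12:70183921-70183977 (plus) for Rps29, chr12:67346866-67346934 (plus) for Rpl10l and chr9:106323804-106323860 (minus) for Rpl29, all mm9.
Rps12: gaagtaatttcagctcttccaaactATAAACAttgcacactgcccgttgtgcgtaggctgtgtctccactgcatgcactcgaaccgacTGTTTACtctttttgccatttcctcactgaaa
Rps3a: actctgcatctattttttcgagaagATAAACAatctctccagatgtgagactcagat
Rps4y2: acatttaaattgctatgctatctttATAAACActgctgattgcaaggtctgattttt
Rps27a: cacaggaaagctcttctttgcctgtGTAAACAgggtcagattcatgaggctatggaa
Rps29: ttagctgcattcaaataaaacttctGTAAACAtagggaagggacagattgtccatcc
Rpl10l: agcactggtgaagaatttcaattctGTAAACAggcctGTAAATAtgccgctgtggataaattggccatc
Rpl29: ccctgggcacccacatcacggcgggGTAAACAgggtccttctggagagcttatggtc
Rps12 carried 2 sites in opposite orientations, and Rpl10l carried 2 sites 5 bases apart on 1 strand.

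Foxf2-FLAG peaks were assigned to 25 of the 82 ribosomal protein genes, or 30.5% (Wilson 95% interval 21.6 to 41.1%), while 22.0% of all protein-coding genes had one. Promoter peaks lay at 11 members, or 13.4% (7.66 to 22.4%), against 10.3% of all genes, so this share sat near the level of the genome. Distal peaks were assigned to 16 members, or 19.5%, against 14.4% of all genes. Both kinds were present at Rps19 and Rps14, and 5 genes (Rps19, Rps14, Rps4y2, Rps12 and Rpl31) had 2 peaks each. Of the 30 peaks, 11 were promoter peaks (36.7%), close to the 34.0% of all assigned peaks. Small subunit genes had peaks in 13 of 33 cases (39.4%, 24.7 to 56.3%) and large subunit genes in 12 of 49 (24.5%, 14.6 to 38.1%), and these intervals overlap. No test was made of these shares, because the genes share a single library.

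Ribosomal protein genes stand in gene-dense DNA, which limits how much sequence can be assigned to each. The median length of sequence nearer to a member's start than to any other was 19 kb, against 46.5 kb over all genes. Over their 3.09 Mb in all, the 82 genes had 9.70 assigned peaks per Mb (exact Poisson 95% interval 6.54 to 13.8), and all genes had 4.33 per Mb. The ratio was 2.24. The interval for the members did not reach the value for all genes, but it covers counting error only. It treats peaks of the same gene as independent and is not a test of the difference. With peaks at or above the median score the densities were 6.79 and 2.19 per Mb, a ratio of 3.10. With a deposited fold of at least 15, 7 of the 82 genes had a peak, against 2077 of all 22359 genes. At that fold the share with a peak was thus slightly lower in members than over all genes. The density was not computed at that fold. Density falls with distance from a start, and short territories hold mostly near sequence. Within 10 kb of starts the values were 17.3 and 7.85 per Mb, a ratio of 2.20. Territories can differ in length within 10 kb too, and the part of territory length in these densities was not tested.

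**Figure D1:**
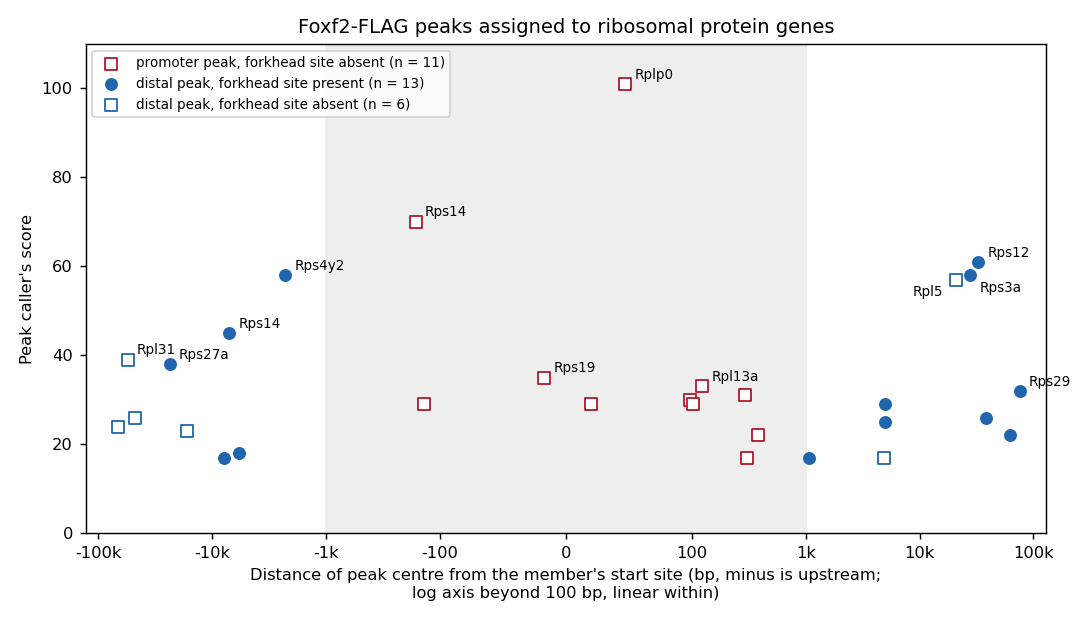
Score of each of the 30 peaks (vertical axis, the peak caller's score) against the distance of its centre from the start site of the assigned ribosomal protein gene (horizontal axis in bp, minus is upstream, log scale beyond 100 bp). The grey band is the promoter class within 1 kb, filled points have a forkhead site in the central 200 bp, and genes with a score over 30 are named, apart from 1. Of the 11 promoter peaks none is filled, and 13 of the 19 distal peaks are.

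Among small subunit genes, the promoter peak of Rps14, a protein of the platform of the subunit whose gene is linked to the anaemia of the 5q- syndrome, held the most tags. It covered 890 bp (chr18:60933557-60934447), its centre lay 162 bp upstream of the start, and it had 242 ChIP tags against 17 input tags. Its fold over input was 10.2 (exact 95% interval 6.24 to 17.8), the narrowest interval of all 30 peaks, and its score of 70 was above 93.9% of the list. Rps19 (chr7:25669573-25670265), the gene most often mutated in Diamond-Blackfan anaemia, had a peak centred 17 bp upstream of a start, with 40 ChIP and 2 input tags, a fold of 14.3 (3.72 to 122) and a score of 35. At Rps15a (chr7:125259079-125259579) 32 ChIP tags and 1 input tag were counted 138 bp upstream of the start, a fold of 22.9 and a score of 29. These 3 were the only promoter peaks centred upstream of the nearest protein-coding start. Of them only the Rps14 peak was centred outside its gene. The Rps19 peak was centred in an intron and the Rps15a peak in an untranslated exon, each upstream of a start farther into the gene.

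Other promoter peaks of small subunit genes were centred downstream of the start. Rps13 (chr7:123477299-123477799) had 30 ChIP and 2 input tags 98 bp into the gene, with a score of 30. Rps27l (chr9:66793750-66794250), a paralogue of Rps27 that p53 induces, had 29 and 2 tags at 102 bp, with a score of 29. Both were close to the median of the promoter peaks at ribosomal protein genes, which was 31 tags and a score of 30. Rps16 (chr7:29135727-29136227) had the weakest promoter peak, at the lowest score of the list, 17, with 17 ChIP tags and 1 input tag 306 bp into the gene.

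Large subunit genes had 4 promoter peaks, and that of Rplp0 was the strongest of any ribosomal protein gene by score. Rplp0 encodes the base of the stalk that recruits translation factors. Its peak (chr5:116009211-116009836) was centred 47 bp downstream of the start, with 107 ChIP and 5 input tags and a fold of 15.3 (6.37 to 48.2). The score of 101 was above 98.2% of the list and the next promoter peak, at Rps14, had 70. The forkhead site printed above, ATAAACA on the minus strand at chr5:116009403-116009409, lay 73 bp upstream of the start and 117 bp from the peak's centre, just outside the central 200 bp.

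Peaks at the remaining large subunit promoters were near the median of the list. Rpl35a (chr16:33056383-33056883), another Diamond-Blackfan gene, had 28 ChIP tags and 1 input tag 20 bp downstream of the start, with a score of 29 and a fold of 20.1 (3.32 to 820.3). The start of a neighbouring gene, Iqcg, lay 0.329 kb from that centre, so the peak sits at a promoter that both genes could share. Rpl13a (chr7:52383734-52384234), also known as a component of an inhibitor of translation in inflammation, had 31 and 2 tags at 123 bp downstream and a score of 33. Rpl36 (chr17:56752876-56753510) had 25 ChIP tags and 1 input tag at 375 bp downstream, the farthest of the 11, and a score of 22. No peak within 1 kb of a member's start was assigned to another gene (0 such peaks).

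Part of the gene body of many ribosomal protein genes is copied in processed pseudogenes elsewhere in the genome, which bears on how reads map. In promoter peaks the median share of 31-base words found once in the genome was 95.5%, and it was 70.9% at Rpl36 and 72.2% at Rps16, whose peaks were centred 375 and 306 bp downstream of their protein-coding starts. Distal peaks had a median of 100% (lowest 84.7%, at Rpl19). The 500 bp around the outermost annotated 5′ ends of member genes had medians of 98.7% with a promoter peak and 98.1% without one. The read length was not known here, and the part of repeated sequence in these peaks was not tested.

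**Figure D2:**
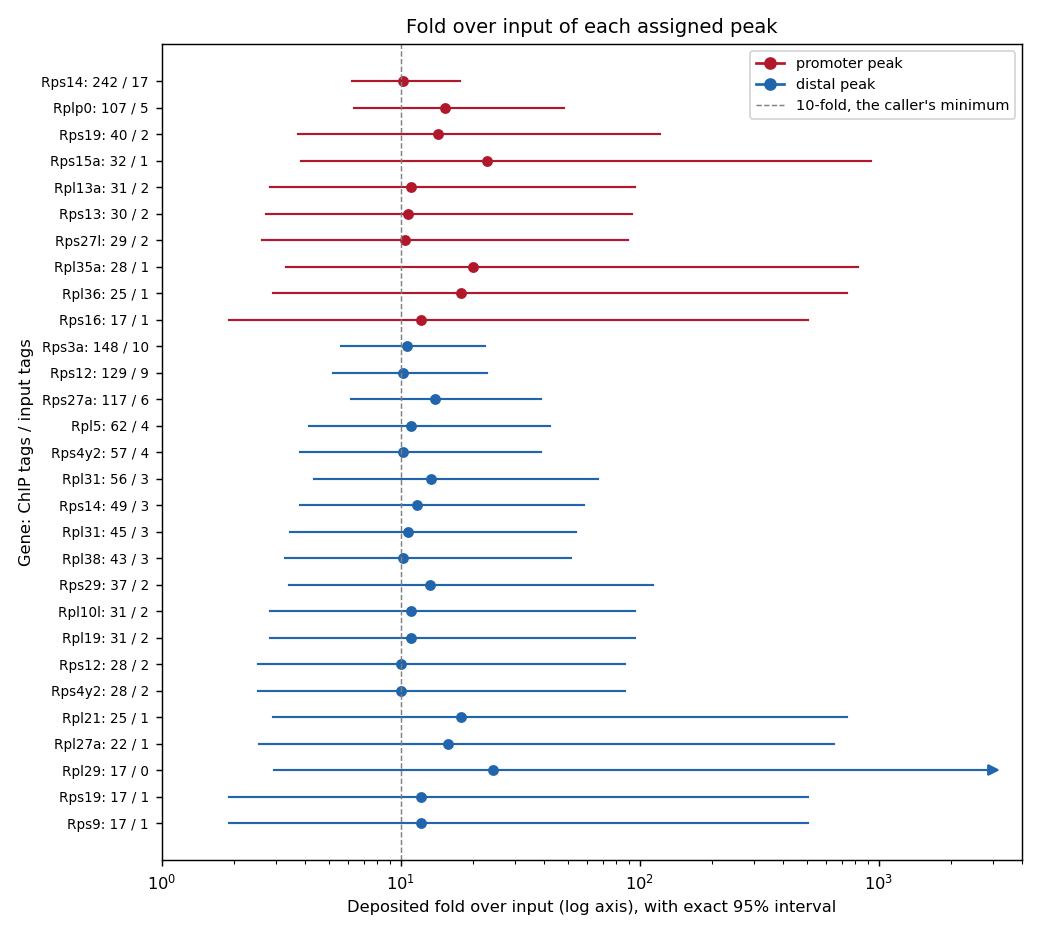
Deposited fold over input of 29 of the 30 peaks (horizontal log axis) with its exact 95% interval, promoter peaks in red and distal peaks in blue, ordered within each by ChIP tags; the vertical labels give gene, ChIP tags and input tags, and the dashed line is the caller's minimum of 10-fold. The interval is shortest at Rps14, from 6.24 to 17.8, and has no upper end at Rpl29 (arrow), which had 0 input tags.

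Distal peaks were assigned to 8 small subunit genes, and the 3 richest in tags lay 23.6 to 32.7 kb from the start. Rps3a, whose protein sits near the exit of messenger RNA, had a peak of 148 ChIP and 10 input tags 27.9 kb downstream (chr3:85918167-85919228; fold 10.6, 5.61 to 22.6), inside an intron of Sh3d19, and a score of 58. Rps12 had 129 and 9 tags 32.7 kb downstream (chr10:23473871-23474677; fold 10.3, 5.24 to 23.0) with a score of 61, and a weaker peak 62.0 kb downstream (chr10:23444745-23445245; 28 and 2 tags; score 22). Both Rps12 peaks were intergenic and both held a forkhead site. Rps27a, which encodes a ribosomal protein fused to ubiquitin, had 117 and 6 tags 23.6 kb upstream (chr11:29471254-29472158; fold 14.0, 6.23 to 38.8) and a score of 38. That peak overlapped a coding exon of 1700034F02Rik, whose start was 23.8 kb away, so the assignment to Rps27a rests on a small difference in distance.

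Rps4y2, a paralogue of Rps4x, had peaks on either side of its start. The upstream peak at 2.27 kb (chr6:148300657-148301157) had 57 ChIP and 4 input tags and a score of 58, and the downstream peak at 4.95 kb (chr6:148307881-148308381) had 28 and 2 tags and a score of 29. Both lie in an intron of Tmtc1, so for this gene nearest start and host gene point to different genes. Rps29, a Diamond-Blackfan gene, had 37 and 2 tags 76.3 kb downstream (chr12:70183467-70184241; score 32), the longest distance of the 30. Rps19 had a second peak 5.78 kb upstream (chr7:25663363-25663863; 17 ChIP tags, 1 input tag, score 18).

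The second peak of Rps14 lay 7.09 kb upstream (chr18:60926757-60927385), with 49 ChIP and 3 input tags and a score of 45, both below its promoter peak. Rps9 (chr7:3656734-3657234) had 17 ChIP tags and 1 input tag in its own intron, 1057 bp downstream of the start and so just outside the promoter class, while the farthest promoter peak, at Rpl36, was at 375 bp. The start of a non-coding transcript of Rps9 itself lay 234 bp from the centre of this peak, which held a forkhead site. All 10 distal peaks of small subunit genes held a forkhead site in the central 200 bp, and 4 of those 10 came from the pairs at Rps12 and Rps4y2.

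Distal peaks of large subunit genes were assigned to 8 genes, and 3 of their 9 peaks held a forkhead site in the central 200 bp. Rpl5, which carries the small ribosomal RNA of the large subunit and binds Mdm2 when ribosome assembly fails, had the highest score among them, 57. Its peak 20.9 kb downstream (chr5:108350442-108351069) had 62 ChIP and 4 input tags and a fold of 11.1 (4.13 to 42.0), and lay in an intron of Fam69a. Rpl31 had 2 peaks upstream, both in introns of Npas2: 56 and 3 tags at 55.0 kb (chr1:39369480-39369980; score 39) and 45 and 3 tags at 47.3 kb (chr1:39377102-39377602; score 26). Rpl38, known from mice whose vertebral pattern and Hox protein levels depend on it, had 43 and 3 tags 67.3 kb upstream (chr11:114462308-114462808; score 24). None of these 4 had a forkhead site in the central 200 bp, and over the whole peak Rpl5, Rpl38 and the nearer Rpl31 peak did.

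The other 5 distal peaks of large subunit genes held between 17 and 31 ChIP tags. Those of Rpl19 (4.93 kb downstream, chr11:97892917-97893417; 31 and 2 tags), Rpl10l (38.5 kb downstream, chr12:67346478-67347254; 31 and 2 tags) and Rpl29 (7.90 kb upstream, chr9:106323637-106324137; 17 and 0 tags) held forkhead sites. Rpl10l is a retrogene used in the male germ line, and the next start, of Mdga2, was 225 kb from its peak. With no input tag, the fold at Rpl29 has a lower limit of 2.96 and no upper one. Rpl21 (16.8 kb upstream, chr5:147627346-147628005; 25 ChIP tags and 1 input tag) and Rpl27a (4.88 kb downstream, chr7:116667211-116667866; 22 and 1 tags) held no forkhead site over the whole peak. The Rpl27a peak lay over an untranslated exon of St5.

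Nearest-start assignment says little about which gene a distal region acts on. Of the 19 distal peaks, 10 were intergenic, 1 lay in the assigned gene and 8 lay inside another gene. A forkhead site was present in 8 of the 10 intergenic peaks and 4 of the 8 inside another gene. When genes of every biotype could receive peaks, only 8 distal peaks went to members, while promoter peaks numbered 12.

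Promoter and distal peaks of ribosomal protein genes were of similar strength. The median score was 30 at promoters (17 to 101, n = 11) and 26 at distal peaks (17 to 61, n = 19), against 26 and 24 over all promoter and all distal peaks. By ChIP tags the order turned, with medians of 31 and 37, so no direction is given for strength. More than 100 tags were counted in 5 of the 30 peaks (16.7%), at Rps14, Rps3a, Rps12, Rps27a and Rplp0, against 7.43% of all peaks. Of the 11 promoter peaks, 8 were centred downstream of the start, and the median distance was 123 bp. Over all 2357 promoter peaks 1588 were centred downstream, a similar share, and the median distance was 207 bp.

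The classes differed in the sequence beneath them. A forkhead site (RTAAAYA, either strand) lay in the central 200 bp of 0 of 11 promoter peaks (Wilson 95% interval 0 to 25.9%), and the rule of 3 counts, here 3 of 11, gives a like upper limit of 27.3%. Over all promoter peaks the share was 9.89%, inside that interval. Distal peaks held it in 13 of 19 cases, or 68.4% (46.0 to 84.6%), against 49.7% of all distal peaks, also inside the interval. Both in the ribosomal protein genes and in the whole list the site was thus more frequent in distal peaks, and whether the size of the contrast differed was not tested. Counting starts of all transcripts of protein-coding genes, an alternative chosen after seeing the data, made the Rps9 peak a promoter peak. The Rps27a peak and both Rpl31 peaks then no longer went to members. With these starts 1 of 12 promoter and 11 of 15 distal peaks held the site. Over whole peaks the counts were 1 of 11, at Rplp0, and 16 of 19, against 24.1% and 75.9%. Distal peaks 1 to 10 kb from the start had the site in 7 of 8 cases and those 10 to 100 kb away in 6 of 11.

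Among the 19 distal peaks GTAAACA occurred in 6 (31.6%), ATAAACA in 5 (26.3%), ATAAATA in 3 (15.8%) and GTAAATA in 1 (5.26%). Over all distal peaks these shares were 18.2%, 24.9%, 9.87% and 7.25%, with ATAAACA the most frequent. Base composition moved with the contrast between promoter and distal peaks. The GC content of the central 200 bp was 58.0 to 71.5% in promoter peaks (median 64.5%) and 32.0 to 58.5% in distal peaks (median 42.5%). Only the Rpl29 peak, among the distal ones, lay above the lowest promoter value. The site read backwards, which has the same bases in reverse order, occurred in 0 of 11 promoter and 3 of 19 distal peaks, against 3.52% and 22.3% of all promoter and distal peaks. The part of base composition in the contrast was not otherwise tested.

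**Figure D3:**
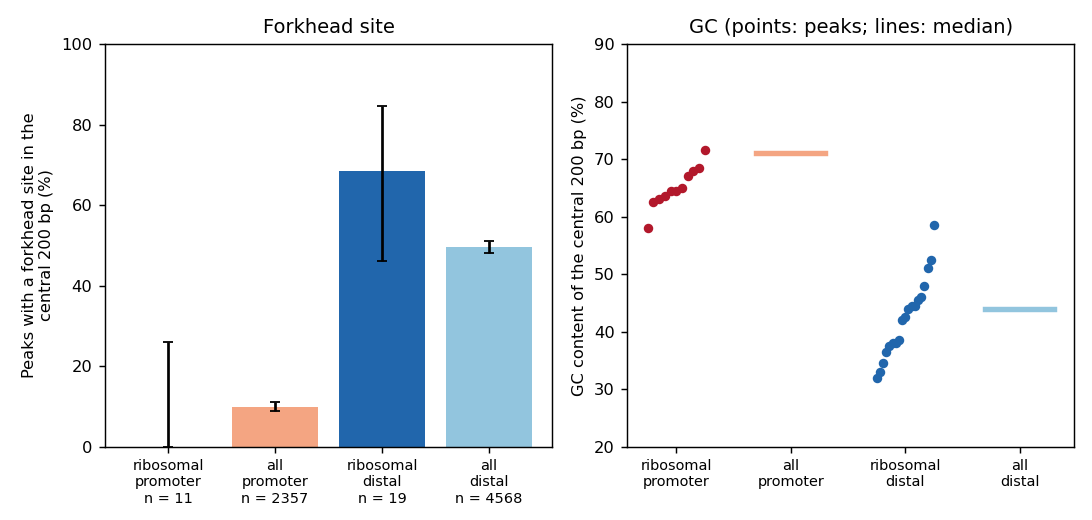
Left, share of peaks with a forkhead site in the central 200 bp (bars, %, with Wilson 95% intervals) for promoter and distal peaks of ribosomal protein genes and of all genes; right, GC content (%) of the same windows, each point a peak of a ribosomal protein gene and each line the median of all peaks of the class. The site is in 0 of 11 promoter and 13 of 19 distal peaks, and GC medians are 64.5% and 42.5%.

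Promoter peaks of ribosomal protein genes were lower in GC than other promoter peaks, with a median of 64.5% against 71.0%, and GGGCGG and GCCNNNGGC were present in a smaller share of them. In the central 200 bp GGGCGG (SP/KLF) was in 3 of the 11 (27.3%), at Rplp0, Rpl13a and Rps16, against 54.7% of all promoter peaks; the Rpl35a copy printed above lies outside that window. GCCNNNGGC (AP-2) was in 2, at Rps13 and Rps27l (18.2% against 31.8%), CCGGAAG (ETS family) in 1, at Rps27l (all: 6.19%), and AAGATGG (YY1) in 1, at Rpl35a (all: 3.61%). TATAAA was in the Rplp0 window alone (all: 2.80%), and TGACTCA (AP-1) was in none, against 1.27%. Each motif was searched on both strands, and counts of 0 to 3 among 11 peaks set no share closely.

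Motifs known from promoters of this family were present at some of the 82 starts, with and without Foxf2-FLAG peaks. Motif and GC windows were the 200 bp around the outermost annotated 5′ end of each gene, which need not be the start at its peak. At Rpl13a, Rps19 and Rps15a this window lay outside the promoter peak. In it CCGGAAG occurred in 25 of 82 genes (30.5%, against 9.35% of all genes) and AAGATGG in 11 (13.4%, against 5.38%). A forkhead site occurred in 3 (3.66%, against 6.80%). A pyrimidine run (CTTTCC or CCTTTC on the sense strand within 20 bp of any protein-coding start) was present at 19 of 82 (23.2%, against 4.96%). It was at 3 of the 11 genes with a promoter peak and 16 of the 71 without (all genes: 6.03% and 4.84%). CCGGAAG was at 2 of the 11 and 23 of the 71, and GGGCGG at 7 of the 11 and 30 of the 71. Over the genome GGGCGG was at 64.5% of 5′ ends with a promoter peak and 40.0% of all 5′ ends. For CCGGAAG these shares were 10.8% and 9.35%. Windows at the 5′ ends of members with a promoter peak had a median GC of 62.0%, and those of members without one 59.0%. Over all genes these medians were 69.0% and 57.5%.

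GC content of the window at the 5′ end also went with promoter peaks over the whole genome. The share rose from 2.30% of genes under 45% GC to 24.6% of those at 70% or more. Ribosomal protein genes between 60 and 65% GC had promoter peaks in 4 of 28 cases (all genes in that range: 10.1%), and those between 65 and 70% in 4 of 12 (13.3%). None of the 3 members at 70% or more had one. Between 55 and 60% the count was 2 of 25 (6.31%).

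More than any other chromosome, chromosome 7 held the promoter peaks. It carries 14 of the 82 genes, of which 8 had a peak and 6 a promoter peak (among them Rps19, Rps13, Rpl13a, Rps15a and Rps16), while 6.81% of all 2069 genes on it had a promoter peak. Of the 68 members on other chromosomes 5 had one, on chromosomes 5, 9, 16, 17 and 18. Without chromosome 7 the count of promoter peaks falls from 11 to 5, and that of genes with a peak from 25 to 17. The pattern was noticed after the values were seen and no test was made of it. Of the 4 members on the X chromosome none had a peak, and 5.26% of all 932 genes on it had a promoter peak.

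**Figure D4:**
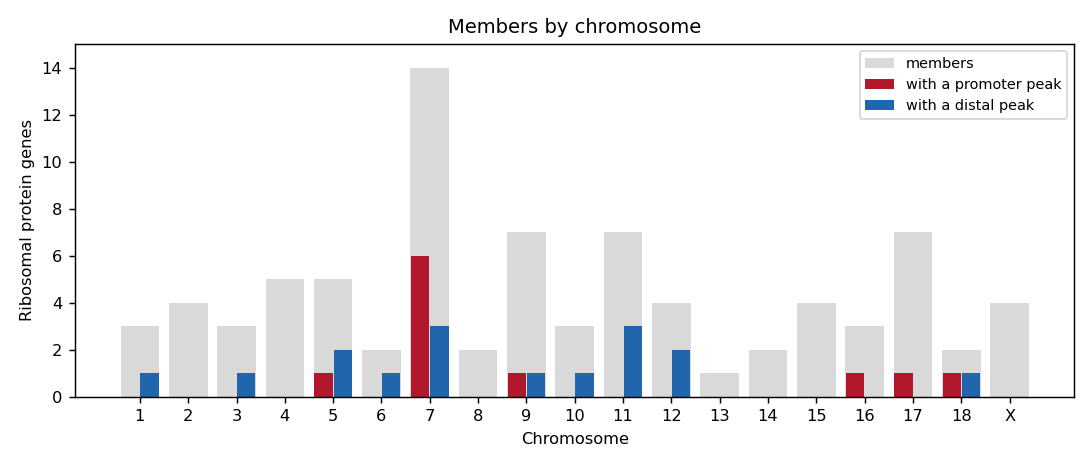
Number of ribosomal protein genes on each chromosome (grey bars) and of those with a promoter peak (red) or a distal peak (blue); chromosomes without a member are not drawn. Chromosome 7 has 14 members, 6 of them with a promoter peak.

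The 57 ribosomal protein genes without an assigned peak had a median distance of 61.9 kb to the nearest peak (at most 527 kb), and 17 of them had none within 100 kb. Among those nearest to one were Rpl22 (7.31 kb, a peak assigned to Rnf207 with 18 ChIP tags and 1 input tag) and Rpl7a (7.97 kb, a peak assigned to Surf6 with 62 and 3 tags). Many ribosomal protein genes host small nucleolar RNAs, which guide the modification of ribosomal RNA, in their introns. Of the 30 hosts 3 had a promoter peak, and of the 52 others 8 did, while 10.3% of all genes had one.

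Genes of neighbouring steps in protein synthesis gave a scale for these shares. Mitochondrial ribosomal proteins, which serve the separate ribosome of the organelle, had peaks at 8 of 77 genes (10.4%, 5.36 to 19.2%), with the highest scores at Mrpl23 (44), Mrps30 (30) and Mrpl19 (25), all distal. The share was 22.0% over all genes and 30.5% (21.6 to 41.1%) in the cytosolic set. Their density was 2.47 peaks per Mb (1.07 to 4.87), against 4.33 over all genes and 9.70 (6.54 to 13.8) in the cytosolic set. No test was made between the lists. Promoter peaks alone were at 3 of 77 (3.90%, 1.33 to 10.8%), an interval that overlaps that of the cytosolic genes (7.66 to 22.4%). Over all genes the share with a promoter peak was 10.3%.

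Symbols from Eif1 to Eif6, chosen for translation initiation factors, had peaks at 12 of 58 genes (20.7%, 12.3 to 32.8%), with the highest scores at Eif4g1 (32), Eif4e (30) and Eif5b (29). The symbols also take in 8 genes that are not initiation factors, the Eif2c genes of the Argonaute family and the Eif2ak kinases, and 5 of those 8 had a promoter peak. Of the other 50 symbols 7 had a peak (14.0%, 6.95 to 26.2%) and 5 a promoter peak. Nucleolar and assembly factors, which build the subunits, had peaks at 3 of 44 (6.82%, 2.35 to 18.2%): Ltv1 (62), Nop58 (30) and Dkc1 (24). Of 7 elongation factors Eef2 alone had one (24), and Fau and Gnb2l1, ribosomal proteins that the symbol rule misses, had none. Among the 13 kinases and symbols left out by the rule, Rpl7l1 had a promoter peak with a score of 19. The left-out pseudogene symbols had peaks at 5 of 53, all distal. No gene of these translation lists reached the highest scores of the cytosolic genes, 101 at Rplp0 and 70 at Rps14.

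**Figure D5:**
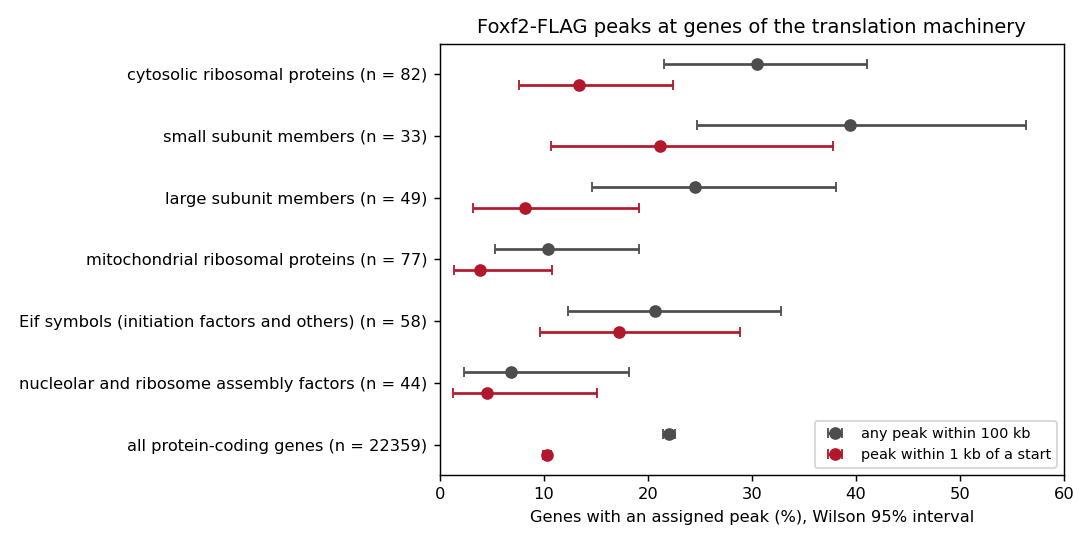
Share of genes (%) with any assigned peak within 100 kb (grey) and with a promoter peak (red) in the cytosolic ribosomal protein genes, their subunits, related lists (the Eif symbols include 8 genes that are not initiation factors) and all genes, with Wilson 95% intervals. The cytosolic set is at 30.5% and 13.4%, mitochondrial ribosomal proteins at 10.4% and 3.90%, and all genes at 22.0% and 10.3%.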

How the data were processed

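Anti-FLAG ChIP-seq and input DNA of pooled palatal shelves were sequenced as 1 library each. Reads were aligned to mm9, and Bowtie 1.0.0, SAMtools 0.1.19 and HOMER were named, per the submitters' processing notes. Which HOMER release was used remains a detail not given in the sources used here. HOMER findPeaks, per the file headers, ran in histone style on the ChIP library against input, keeping at most 1 tag per position and with a Poisson tag threshold of 17 and a 10-fold excess over input and over the surrounding 10000 bp, each at a p-value of 0.0001. The deposited signal columns held ChIP tags scaled to 10000000 and input tags, with 0.5 written for 0. Whole ChIP tags were recovered from the signal (largest deviation 0.134) and summed to 397999. The deposited fold is the ratio of ChIP tags at input depth to input tags. The deposited score and fold served only to describe and filter peaks, and the deposited p-value was not used further.

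Coordinates are 1-based on mm9 (NCBIM37). Python 3.11.15, pandas 2.3.3, SciPy 1.17.1 and pysam 0.24.0 assigned peak centres to starts of protein-coding transcripts, searched motifs in the central 200 bp, and computed Wilson intervals, exact Poisson intervals of densities and exact conditional intervals of folds, all at 95%. Reads without molecular identifiers are not independent molecules, so intervals cover counting error only. No test between groups was possible with 1 library each. The code was tested on simulated data. The rule was to name every member with a peak, up to the 3 genes of each other list with the highest score, and the 3 members without a peak nearest to one; a few of these genes are counted but not reported here by name. The members, lists and motifs were chosen with earlier results of these data known. Alternatives varied the score and fold minimum, the starts, biotypes, distances, window, motif and membership. Input entered only through the deposited columns.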

Additional observations from a re-analysis of the deposited data

How the results depend on the processing

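Of 45 alternative settings (36 planned and 9 added after seeing the data), 32 left the result near its reported value, 12 moved it and 1 reversed it. Requiring a deposited fold of at least 15 left 7 genes with a peak in place of 25. It left 4 promoter peaks in place of 11 and 3 distal peaks in place of 19. Genes with a peak over the genome went from 4925 to 2077. The share of members with a peak was then slightly below that of all genes, where it had been above. Requiring the median score left 12 distal peaks. Assignment within 10 kb left 16 genes and 8 distal peaks and raised the density from 9.70 to 17.3 peaks per Mb. Allowing genes of all biotypes, with the starts of all their transcripts, left 8 distal peaks. Counting all transcripts of protein-coding genes alone left 15. Leaving out chromosome 7, an alternative added after seeing the data, left 5 promoter peaks. The difference in median score between promoter and distal peaks, 4, became 3.23 in the deposited fold and reversed to -6 in ChIP tags. The difference in forkhead share, -68.4 percentage points, became -31.6 with GTAAACA alone and -15.8 with the site read backwards. It kept its direction in the 8 alternatives run. These include the site read backwards, which is a control of base composition and not a forkhead site. Why these values moved was not tested beyond what each setting removes or adds. No paired analysis was possible because there was 1 ChIP library and 1 input library. Depth limits each fold: with 1 or 2 input tags its interval spans more than 10-fold.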
